A study of Mus musculus with 4 samples.

Results

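The sodium pump genes described here are Atp1b1 and Atp1b2, which encode beta subunits, and Fxyd1, Fxyd2, Fxyd5, Fxyd6 and Fxyd7, which encode small regulators of the pump. They are 7 of the 22096 gene symbols in the deposited tables and were chosen by name with the control and knockout values of these libraries already known. Their difference between genotypes is therefore given as a description. They were part of the fit across all genes, but their p-values are not given and their calls, counted below, support nothing. Transcripts were measured in whole spinal cord of mice at postnatal day 8, on a mixed strain background, in 2 control and 2 conditional knockout (cKO) libraries. Control animals had the genotype Chd7f/+; Olig1-cre and cKO animals Chd7f/f; Olig1-cre, so both groups carried Cre recombinase and at least 1 floxed allele of the chromatin remodeler gene Chd7. Cre driven from Olig1 is known to act in the oligodendrocyte lineage and in progenitors of motor neurons, and whole cord also holds many cells outside both. In such bulk RNA, fewer cells of a type and less RNA per cell cannot be told apart. The labels do not say whether the libraries of a group came from separate animals, so the tests measure only the spread between these libraries. For the controls that spread may be technical, whereas the sex-linked transcripts given below differed between the cKO libraries, which therefore were not repeats of the same RNA.

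The sodium pump, or Na,K-ATPase, uses ATP to move sodium out of a cell and potassium in, and so sets the gradients that neurons spend in firing and that many transporters draw on. Its catalytic alpha subunit needs a glycosylated beta subunit to fold and reach the membrane. FXYD proteins span the membrane once, bind the assembled pump and tune its affinity for ions. They are named after a short motif of phenylalanine, any residue, tyrosine and aspartate that lies just outside the membrane.

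The motif codons are shown because they encode the motif that gives the family its name and that all 5 FXYD genes share. Each line gives 15 coding bases on either side of the motif, 5′ to 3′ on the coding strand, from GENCODE M21 transcripts (GRCm38) matched to the RefSeq transcript that carried most of the gene's signal, with the motif codons in capitals.
Fxyd1: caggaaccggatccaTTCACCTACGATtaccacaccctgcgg
Fxyd2: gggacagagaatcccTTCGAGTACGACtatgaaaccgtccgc
Fxyd5: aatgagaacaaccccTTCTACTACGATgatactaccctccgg
Fxyd6: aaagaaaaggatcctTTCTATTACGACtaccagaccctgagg
Fxyd7: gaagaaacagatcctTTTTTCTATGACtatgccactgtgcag
Over these 42 bases, 13 were identical in all 5 genes. The closest pair was Fxyd1 and Fxyd6, with 31 identical bases, and the most distant was Fxyd2 and Fxyd7, with 22. The codons of the motif were found in frame in 644 of 21522 mouse coding sequences (2.99%), so the motif also occurs outside the family. The coding sequences shown were short, from 192 bases in Fxyd2 to 534 bases in Fxyd5.

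The FXYD genes lay in 2 groups on the genome. On chromosome 7 of mm9, Fxyd5 (31817742 to 31827341), Fxyd7 (31827534 to 31836473) and Fxyd1 (31836697 to 31840675) followed each other with 192 and 223 bases between their loci, all on the minus strand in GENCODE. On chromosome 9, Fxyd6 (45178268 to 45204242) and Fxyd2 (45207792 to 45218361) were 3549 bases apart, both on the plus strand. Atp1b1 was on chromosome 1 (166367398 to 166388486) and Atp1b2 on chromosome 11 (69413252 to 69419462). The values below are FPKM, fragments scaled by transcript length and library size, added up per gene from every transcript that is 300 bases or longer.

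Relative sequencing depth ran from 1.0 in control 2 to 3.19 in cKO 2. Chd7 itself was at 3.52 and 3.12 FPKM in control cord and at 2.52 and 3.38 in the cKO libraries, and did not pass (limma adjusted p = 0.657). A level summed over whole transcripts and whole cord need not follow a deletion made in some of its cells. The libraries differed in ways the genotype labels do not give. Y-linked Ddx3y was at 11.6 FPKM in cKO 2 and at most 0.195 in the other libraries. Xist was at 55.6 and 51.8 FPKM in the controls, 19.6 in cKO 1 and 0.233 in cKO 2. The groups were therefore not matched on these sex-linked transcripts, and the part of sex in the differences between them was not tested. The summed level of 10 markers of meninges and fibroblasts was 279 FPKM in control 1, 62.8 in control 2, 37.1 in cKO 1 and 39.8 in cKO 2. Defining markers of the cord's cell types were present: 10 neuron markers summed to between 1993 and 2926 FPKM, 8 astrocyte markers to between 1487 and 2053, and 10 markers of myelinating oligodendrocytes to between 6684 and 18684. The myelin sum was lowest in cKO 1 and higher in both controls than in either cKO library.

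The order of the 7 genes by level was Atp1b1, Atp1b2, Fxyd7, Fxyd6, Fxyd1, and then Fxyd5 and Fxyd2. Mean levels over the 4 libraries ran from 473 FPKM for Atp1b1, above 99.6% of the genes tested, to 4.96 FPKM for Fxyd2, above 30.6% of them. Levels of Fxyd2 and Fxyd5 changed places: Fxyd5 was the higher in both controls and Fxyd2 the higher in both cKO libraries. Every other neighbouring pair in this order kept its order in each of the 4 libraries, Atp1b1 exceeding Atp1b2 by 1.10- to 1.42-fold. With 2 libraries against 2, an exact permutation test cannot give a two-sided p below 0.333 for any gene.

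**Figure D1:**
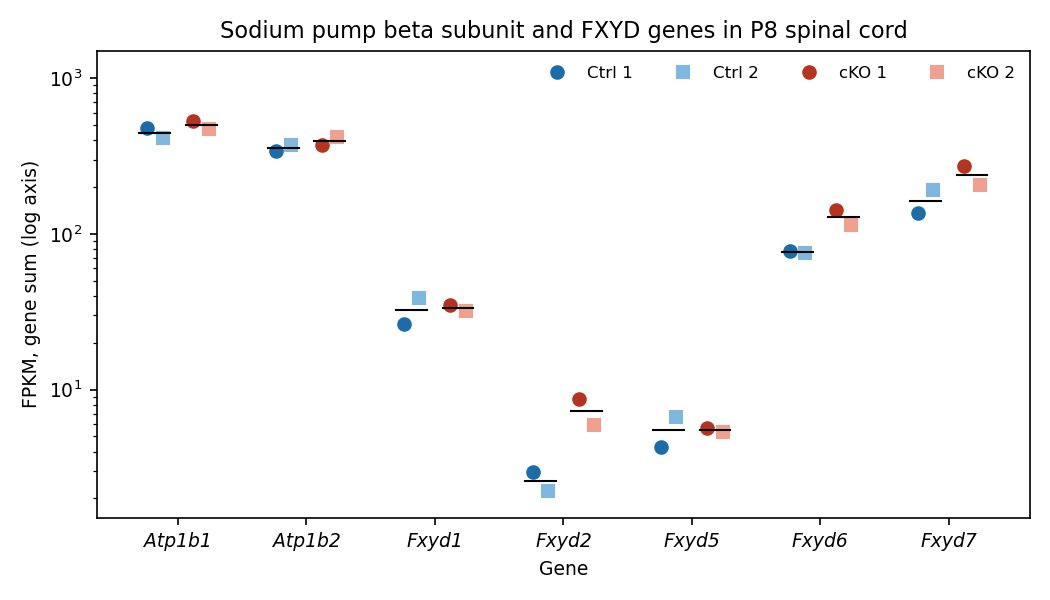
FPKM (log axis) of the 7 genes in each library, with circles for replicate 1, squares for replicate 2 and black lines for group means (n = 2 each). Fxyd2, Fxyd6 and Fxyd7 lie higher in both cKO libraries than in both controls, and the groups overlap for the other genes.

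Fxyd2, Fxyd6 and Fxyd7 were higher in both cKO libraries than in both controls, and no member was lower in both. Fxyd2 encodes the gamma subunit, best known from kidney. It was at 2.97 and 2.22 FPKM in the control pair, against 8.70 and 5.96 in cKO 1 and 2. The cKO mean of 7.33 ± 1.94 FPKM was 2.82 times the control mean of 2.59 ± 0.526 FPKM (SD, n = 2 each). On the log2(FPKM + 1) scale, which understates the change of low genes, the difference was 1.20 ± 0.16 (SE). The cKO values lay well above both controls, at a low depth: mean coverage of the measured transcript was 4.41 and 1.59 per base in the controls and 13.9 and 13.6 in the cKO libraries. Nearly all of this came from 1 of 3 listed transcripts, NM_007503, whose share was at least 99.996% in every library. The other 2 were listed near 0.

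Fxyd6 encodes phosphohippolin, an FXYD protein of the brain. It was at 77.1 and 74.97 FPKM in the control pair, against 142 and 114 in cKO 1 and 2. The controls were within 1.03-fold of each other, and the cKO libraries differed by 1.25-fold. Means were 76.0 ± 1.4998 and 127.5 ± 19.8 FPKM (SD, n = 2 each), a ratio of 1.68 and a log2 difference of 0.73 ± 0.19 (SE). The difference was 0.57 without cKO 1 and 0.89 without cKO 2. Coverage was deep for this gene, at 53.8 to 260 per base.

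Fxyd7 encodes another FXYD protein of the brain and was the most abundant FXYD gene in every library. It was at 135 and 190 FPKM in the control pair, against 274 and 207 in cKO 1 and 2. The groups did not overlap, but cKO 2 was closer to control 2 than the controls were to each other. Means were 163 ± 38.9 and 241 ± 47.6 FPKM (SD, n = 2 each), a ratio of 1.48 and a log2 difference of 0.57 ± 0.22 (SE). That difference was 0.32 without control 1 and 0.36 without cKO 1, against 0.81 without control 2 and 0.77 without cKO 2.

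Fxyd1 encodes phospholemman, an FXYD protein known as a phosphorylated regulator of the pump in heart and muscle. It was at 26.5 and 38.6 FPKM in control tissue, against 34.9 and 32.2 in the cKO, which lay between the controls. The log2 difference was 0.06 ± 0.17 (SE). It was -0.20 without control 1 and 0.33 without control 2, so its sign changed with the control that was kept. Of 4 listed transcripts, NM_019503 held between 75.7% and 85.2% of the gene's FPKM. NM_052991, which starts within the locus, was at 3.95 and 3.26 FPKM in control tissue, against 7.68 and 4.59 in the cKO, higher in both. The share of NM_052991 in the gene overlapped between the groups, at 14.9% and 8.45% against 22.0% and 14.3%.

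Fxyd5 encodes dysadherin, an FXYD protein also linked to cell adhesion. It was at 4.29 and 6.70 FPKM in control tissue, against 5.64 and 5.37 in the cKO, again between the controls. The log2 difference was 0.03 ± 0.16 (SE), and was -0.24 without control 1 and 0.30 without control 2. Its minor transcript NM_001111073 was at 0.537 and 0.693 FPKM in control tissue, against 0.146 and 0.0861 in the cKO. That transcript thus made up 12.5% and 10.4% of the gene in the controls against 2.58% and 1.60% in the cKO libraries, at a coverage under 1 per base in each.

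The beta subunits were abundant and overlapped between the groups. Atp1b1, the most widely expressed beta subunit, was at 480 and 414 FPKM in control tissue, against 528 and 468 in the cKO, a log2 difference of 0.16 ± 0.25 (SE). Atp1b2, also known as the adhesion molecule on glia, was at 341 and 375 FPKM in control tissue, against 371 and 420 in the cKO, a log2 difference of 0.14 ± 0.24 (SE). Quantile scaling, which forces 1 distribution on all libraries, brought the Atp1b2 difference to -2.77e-05. The ratio of Atp1b1 to Atp1b2 followed the replicate number rather than the genotype, at 1.41 and 1.42 in control 1 and cKO 1 and at 1.10 and 1.11 in control 2 and cKO 2.

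In the limma fit across all 12913 genes, 2 of the 7 members, Fxyd2 and Fxyd6, passed an adjusted p of 0.05 and both were higher. In that fit 4.13% of all genes were called higher and 6.54% lower. Groups did not overlap, with cKO higher, for 3 of the 7 members and for 24.3% of all genes. With cKO lower, groups did not overlap for 0 of the 7 members and for 29.3% of all genes, and 53.5% of all genes did not overlap in either direction. Nothing is read from these counts, since the members were picked with this comparison in view. The median log2 difference was 0.16 over the members and -0.0028 over all genes tested. Fxyd2 was the only member called without control 1, without control 2 or without cKO 1, where 3.61%, 4.17% and 0.827% of all genes were called higher. Fxyd2, Fxyd6 and Fxyd7 were called without cKO 2, where 4.29% of all genes were.

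Pump subunit and FXYD genes that are not among the 7 were tested in the same fit. Of 15 listed, 8 had a mean of at least 1 FPKM, and of these Fxyd3 fell and none rose by limma at an adjusted p of 0.05. At an unadjusted p of 0.05, 2 were lower and none higher. The share called lower was 12.5%, beside the 6.54% of all genes, and the median was -0.06. Fxyd3 encodes the FXYD protein Mat-8. It went from 3.94 and 4.67 FPKM in the controls to 2.45 and 2.01 FPKM in the cKO libraries (log2 fold change -0.72 ± 0.15 SE, limma adjusted p = 0.00144). The Fxyd3 locus shares 401 bases with that of Lgi4 on the other strand, so reads of the overlap may belong to either gene where counting ignored strand.

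Atp1b3, the remaining beta subunit above 1 FPKM, was at 59.4 and 55.3 against 58.3 and 52.1 FPKM (limma adjusted p = 0.882). The Nkain genes, whose products bind the pump's beta subunit, did not pass either. Nkain2 was at 16.9 and 15.3 FPKM in control tissue, against 10.2 and 13.8 in the cKO (log2 fold change -0.41 ± 0.16 SE, limma adjusted p = 0.0888). It passed without cKO 2 (limma adjusted p = 0.0324). Nkain1 and Nkain4 had log2 fold changes of -0.08 ± 0.17 and 0.10 ± 0.16 (SE). Atp1a4, Atp1b4, Fxyd4, Nkain3 and the proton pump genes Atp4a, Atp4b and Atp12a were below 1 FPKM in every library.

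**Figure D2:**
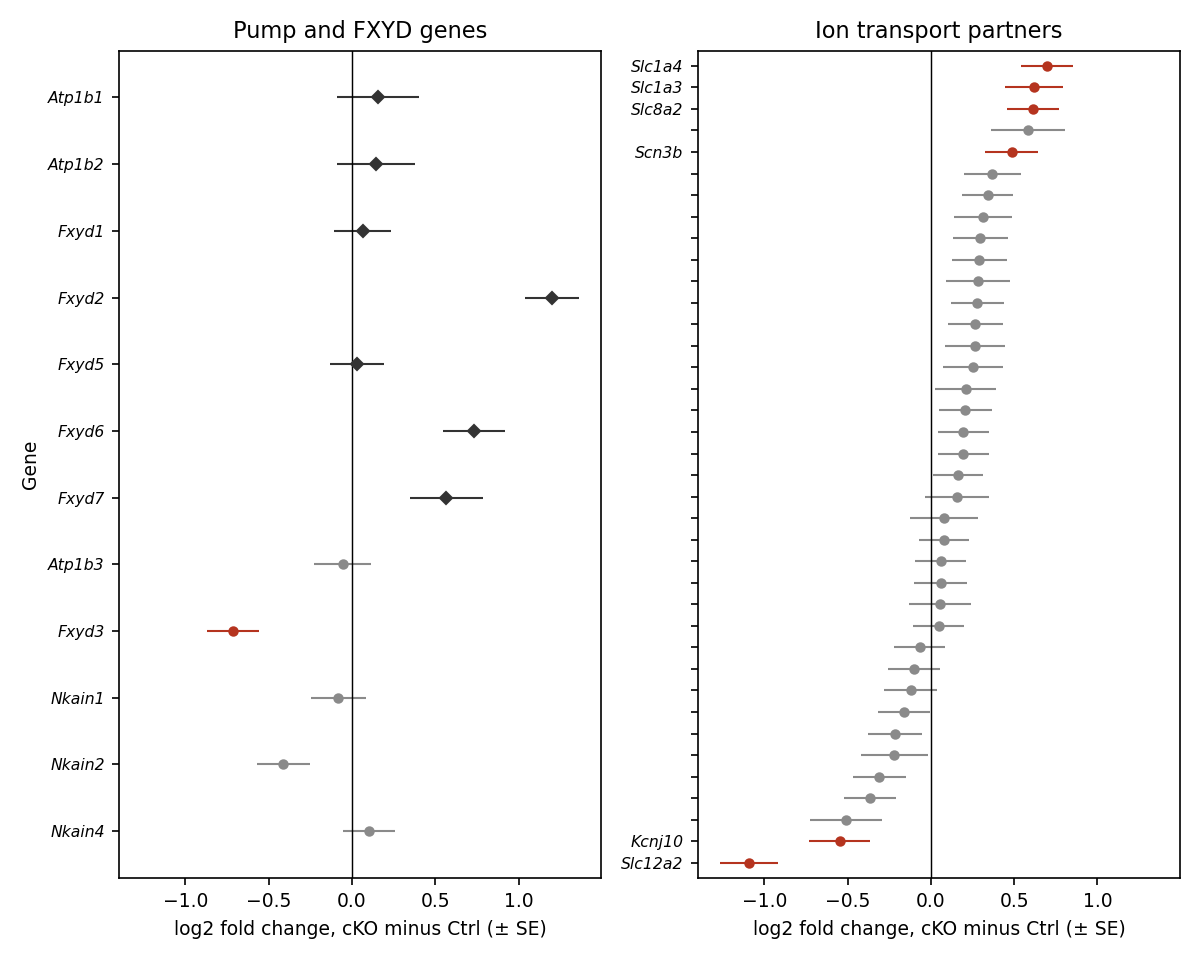
Log2 fold change (cKO minus control, on the log2(FPKM + 1) scale, bars are SE) of pump and FXYD genes on the left and of 38 ion transport partners on the right, where the genes that passed are named. Diamonds are the 7 members, drawn without their calls, and red circles are other genes that passed an adjusted p of 0.05: Fxyd3 on the left, and 4 higher and 2 lower genes on the right.

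Within each library the genes of a kind can be compared as shares of their summed FPKM, a quantity per transcript length that no single factor per library alters. Fxyd7 held 54.1% and 59.9% of the FXYD sum in the controls and 58.7% and 56.5% in the cKO libraries, and Fxyd6 held 30.8% and 23.6% against 30.3% and 31.0%. Both shares overlapped between the groups. Fxyd1 held 10.6% and 12.1% in the controls and 7.46% and 8.79% in the cKO libraries, lower in both although its own level was not. The Fxyd2 share was 1.19% and 0.700% against 1.86% and 1.63%, higher in both. The FXYD sum was 250 and 318 FPKM in control tissue, against 467 and 366 in the cKO libraries.

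Among the beta subunit genes Atp1b1 held 54.5% and 49.0% of the sum in the controls and 55.1% and 49.8% in the cKO libraries, and Atp1b2 held 38.7% and 44.4% against 38.8% and 44.7%. These shares were closer between libraries of the same replicate number than between libraries of the same genotype. The beta sum was 881 and 844 FPKM in control tissue, against 957.1 and 940.4 in the cKO libraries, higher in both.

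**Figure D3:**
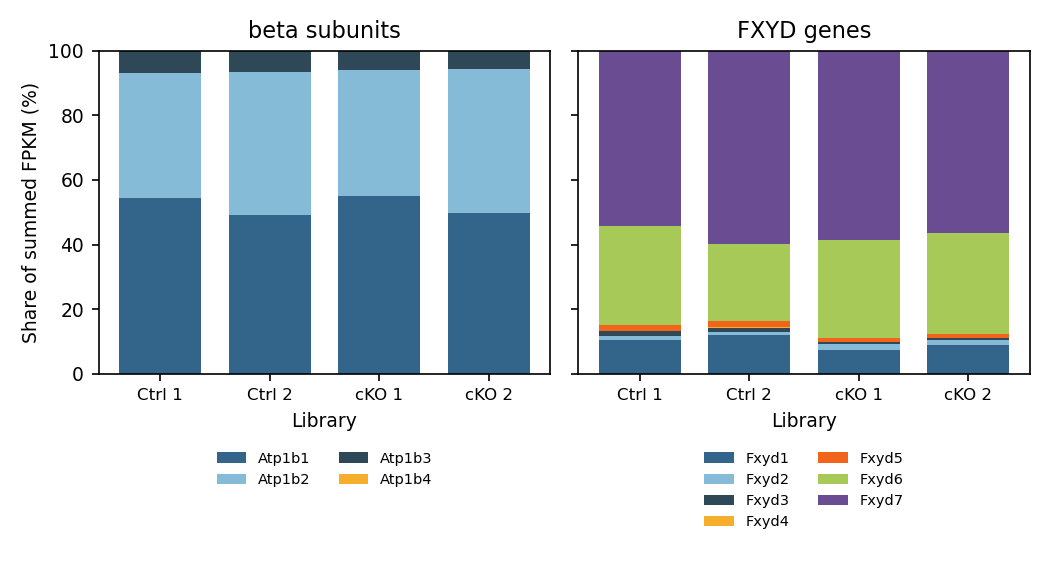
Share of summed FPKM (percent) held by each beta subunit and FXYD gene in each of the 4 libraries. Atp1b1 and Atp1b2 hold most of the beta sum, and Fxyd7 and Fxyd6 hold most of the FXYD sum in every library.

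The sum of the neuron markers was higher in both cKO libraries, as were Fxyd2, Fxyd6 and Fxyd7. All 10 neuron markers had log2 fold changes above 0, with a median of 0.39, from 0.07 for Nefm to 0.69 for Tubb3. Groups did not overlap, with cKO higher, for 6 of the 10 (60%, beside 24.3% of all genes). Slc32a1 alone of them passed (limma adjusted p = 0.0349), where 4.13% of all genes were called higher. The sum of the 10 was 2039 and 1993 FPKM in control tissue, against 2926 and 2456 in cKO 1 and 2. Relative to the control mean, this sum lay at 0.54 in cKO 1 and 0.29 in cKO 2 on the log2 scale, against 0.90 and 0.58 for Fxyd6, 0.75 and 0.34 for Fxyd7 and 1.75 and 1.20 for Fxyd2. As a percentage of the neuron marker sum, Fxyd6 was at 3.78 and 3.76 in the controls and at 4.84 and 4.62 in the cKO libraries. Fxyd2 was at 0.146 and 0.112 against 0.297 and 0.242. Both were higher in the cKO libraries relative to this sum, which need not hold for each marker. Tubb3, the marker with the largest log2 fold change, was at 0.69 ± 0.24 (SE), beside 0.73 ± 0.19 for Fxyd6 and 1.20 ± 0.16 for Fxyd2. Fxyd7 overlapped on this measure, at 6.64 and 9.55 against 9.37 and 8.42. Atp1b1 was lower on it in both cKO libraries, at 23.6 and 20.8 against 18.0 and 19.1. Markers of motor neurons summed to 63.6 and 78.4 FPKM in controls, and to 96.2 and 89.0 in cKO libraries. The part of neuronal RNA in these levels was not tested.

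Atp1b2 is also expressed by astrocytes. The 8 astrocyte markers summed to 1861 and 2053 FPKM in controls, and to 1487 and 1917 in cKO libraries, overlapping. As a percentage of that sum, Atp1b2 was at 18.3 in each control and at 25.0 and 21.9 in cKO 1 and 2. Fxyd1 overlapped on the same measure, at 1.42 and 1.88 against 2.35 and 1.68. These percentages depend on the markers summed, of which 4 of 8 had log2 fold changes above 0. The changes ran from -0.74 for Gfap to 0.62 for Slc1a3, beside 0.14 for Atp1b2.

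Fxyd2 is also known from sensory ganglia, whose cells can remain attached to a dissected cord. Of 6 markers of such ganglia, Scn10a, Trpv1 and Avil were below 0.5 FPKM in every library. Pou4f1, which neurons of the dorsal cord express too, was at 3.22 and 2.98 FPKM in control tissue, against 5.30 and 4.21 in the cKO (limma adjusted p = 0.0355). The sum of the 6 markers was 47.0 and 44.0 FPKM against 55.8 and 47.3 FPKM, almost all of it from Tac1. Fxyd1 and Fxyd5 were lower in control 1 than in control 2, whereas the sum of the meninges markers was higher there. The part of ganglion or meningeal cells in the levels of Fxyd1, Fxyd2 and Fxyd5 was not tested.

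Fxyd3 was also set beside markers of Schwann cells. The sum of the 7 listed was 175 and 116 FPKM in control tissue, against 59.1 and 72.9 in the cKO libraries. That list includes Sox10 of the oligodendrocyte lineage, at 59.1 and 85.9 against 37.3 and 51.1 FPKM. Of 5 tested, 4 were called lower and Ngfr higher (80% and 20%, beside 6.54% and 4.13% of all genes). Ngfr was at 2.15 and 1.19 against 3.53 and 2.96 FPKM (limma adjusted p = 0.00441). Within the controls the sum of the 7 was higher in control 1, whereas Fxyd3 was higher in control 2. The part of Schwann or meningeal cells in the Fxyd3 result was not tested.

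**Figure D4:**
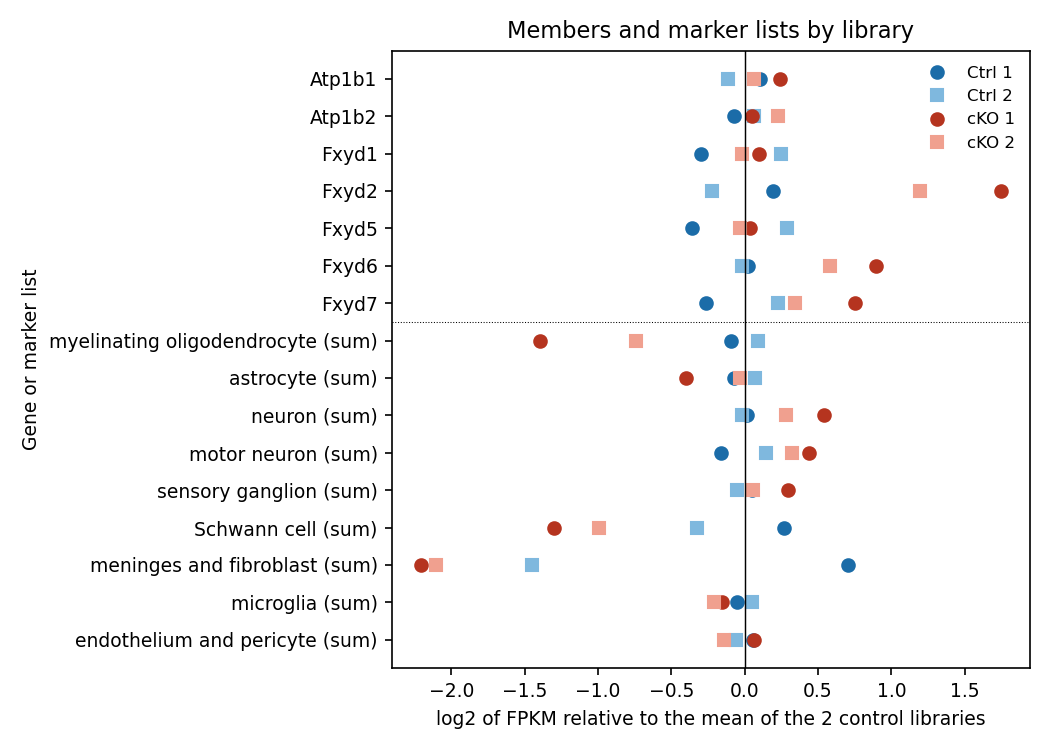
Level of each of the 7 genes and summed level of 9 marker lists in each library, as log2 of FPKM relative to the mean of the 2 controls. All genes but Fxyd1 and Fxyd5 lie right of 0 in both cKO libraries, Atp1b1 and Atp1b2 while overlapping the controls. The neuron, motor neuron and sensory ganglion sums lie right of 0 there too. The myelin, Schwann, meninges, microglia and astrocyte sums lie left of it in both, the astrocyte sum while overlapping the controls.

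Genes that spend or share the gradients of the pump were listed as 38 ion transport partners, all of which were tested. Of these 4 rose and 2 fell, 10.5% and 5.26% of the list beside 4.13% and 6.54% of all genes, and the median was 0.18. Slc12a2, the sodium, potassium and chloride cotransporter NKCC1, fell from 36.9 and 30.2 FPKM in the controls to 11.9 and 19.1 FPKM in cKO 1 and 2 (log2 fold change -1.09 ± 0.17 SE, limma adjusted p = 2.60e-05). Kcnj10, the glial potassium channel Kir4.1, was at 120 and 117 FPKM in control tissue, against 76.6 and 85.6 in the cKO (-0.55 ± 0.18 SE, limma adjusted p = 0.0488). The Kcnj10 call was lost when any 1 of the 4 libraries was left out (limma adjusted p from 0.0515 to 0.388), and in 9 of 14 alternatives in all.

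The higher partners included transporters of amino acids driven by sodium. Slc1a4, a carrier of neutral amino acids, rose from 21.4 and 21.8 FPKM to 36.1 and 35.2 FPKM (log2 fold change 0.70 ± 0.16 SE, limma adjusted p = 0.00234). Slc1a3, a glutamate transporter of astrocytes, had a log2 fold change of 0.62 ± 0.18 (SE, limma adjusted p = 0.0160), and its call was lost in 7 of 14 alternatives, among them leaving out control 2, cKO 1 or cKO 2. Slc8a2, a sodium and calcium exchanger, rose from 13.0 and 11.8 FPKM to 20.9 and 18.3 FPKM (limma adjusted p = 0.00619), a call lost without cKO 1 (limma adjusted p = 0.192). Scn3b, an auxiliary subunit of sodium channels, had a log2 fold change of 0.49 ± 0.16 (SE, limma adjusted p = 0.0412). Its call was lost in 9 of 14 alternatives, leaving out control 2 or cKO 1 among them (limma adjusted p over all alternatives from 0.0219 to 0.582). Without control 1, 8 partners were called higher, against 2 without control 2 and 1 without cKO 1.

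Genes next to the FXYD loci were compared by position, a set chosen after the members' values were seen. Of all genes, 6.54% were called lower and 4.13% higher. Of 3 tested neighbours within 50 kb of the chromosome 7 genes, Fxyd3 and Lgi4 fell and Hpn did not pass. The loci of Fxyd3 and Lgi4 share 401 bases, so their calls may not be independent. Lgi4, a secreted protein of myelinating glia, went from 6.19 and 7.66 FPKM to 3.47 and 4.15 FPKM (limma adjusted p = 0.00133). On chromosome 9 the 1 tested neighbour of Fxyd6 and Fxyd2 was Dscaml1, a neuronal adhesion molecule. It rose from 3.93 and 3.95 FPKM to 5.56 and 6.45 FPKM (limma adjusted p = 0.0252). None of these 3 tested chromosome 7 neighbours had a log2 fold change above 0, while Fxyd7 beside them was higher in both cKO libraries. Of all 12913 genes tested, 6392 had a log2 fold change above 0.

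Genes whose 4 values most resembled those of Fxyd2 and Fxyd6, the members at least 1.5-fold higher with no overlap (as were 3.56% of all genes), were sought by the root mean square difference of centred log2 values. For Fxyd6 the nearest of 8473 genes were Lingo1 (0.0253), at 21.6 and 21.9 FPKM in control tissue, against 40.0 and 32.3 in the cKO libraries, and Emid2 (0.0262). For Fxyd2 they were Hist1h1c (0.114), at 9.06 and 8.75 against 27.1 and 20.7 FPKM, and Syt17 (0.121). Over only 4 libraries many genes can share such a profile.

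Promoters are shown for Fxyd6, higher in both cKO libraries, and for Fxyd1, whose groups overlapped, to let their sequences be set side by side. RefSeq windows from 250 bases before to 50 bases after the start on GRCm38.p6 matched 4 of the 7 members (Atp1b1, Fxyd1, Fxyd5 and Fxyd6). Capitals mark, on either strand, the SOX core ACAANG, the E-box CANNTG bound by helix-loop-helix factors such as those of the Olig family, and the GC box GGGCGG.
Fxyd6, chr9:45369935-45370234, plus strand: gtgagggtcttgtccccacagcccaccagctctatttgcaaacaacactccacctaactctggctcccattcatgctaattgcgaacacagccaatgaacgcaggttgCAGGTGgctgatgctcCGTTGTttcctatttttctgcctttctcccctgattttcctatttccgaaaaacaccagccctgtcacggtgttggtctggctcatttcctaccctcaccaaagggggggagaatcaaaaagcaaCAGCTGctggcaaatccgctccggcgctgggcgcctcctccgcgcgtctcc
Fxyd1, chr7:31054804-31055103, minus strand: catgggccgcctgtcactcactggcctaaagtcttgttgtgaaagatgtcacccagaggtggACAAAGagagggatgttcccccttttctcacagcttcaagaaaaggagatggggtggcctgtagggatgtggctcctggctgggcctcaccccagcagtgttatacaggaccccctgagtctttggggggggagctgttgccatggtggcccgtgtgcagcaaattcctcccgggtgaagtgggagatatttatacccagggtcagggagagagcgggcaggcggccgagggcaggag
The Fxyd6 window held 1 SOX core and 2 E-boxes that do not overlap each other, and the Fxyd1 window held 1 SOX core. No GC box was in either. Among all 32851 promoter windows of the table, 41.2% held ACAANG, 72.3% CANNTG and 35.7% GGGCGG, so such matches are common and are given only as a description of the letters.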

How the data were processed

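Total RNA was extracted with Trizol and prepared with the TruSeq RNA kit, per the labels' protocols. The authors deposited 1 table per library with FPKM and coverage (mean depth per base, a signal) for 28107 RefSeq transcripts, per the file headers. The submitters' processing notes name CASAVA, TopHat, Cufflinks, Cuffdiff and the build mm9, and give no tool versions. Read totals, and whether counting used strand, are not given. Relative depth is the ratio of coverage to FPKM, scaled to control 2.

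The 4 tables were merged by transcript, gene symbol, position and length, 315 rows with a status other than OK were left out, and FPKM was summed per symbol over transcripts of at least 300 bases. Genes with a mean of at least 1 FPKM (12913) were fitted as log2(FPKM + 1) by limma 3.58.1 in R 4.3.3 with a mean-variance trend, genotype as the only term and Benjamini-Hochberg adjustment at 0.05. The spread had 36.3 prior and 2 residual degrees of freedom, so it is mostly pooled over genes. No count model was used because values are FPKM. The script was tested on simulated data.

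The members, gene lists and marker lists were chosen with earlier results of these data known. The text names all members, measured pump family genes, ion transport partners past the threshold, and the 2 genes most like each member whose groups do not overlap and differ by at least 1.5-fold, among genes of at least 5 FPKM. Other genes are named where a sentence turns on them. Some genes of the lists are counted but not reported here by name. Starts were raised by 1 to count from 1, and mm9 and GRCm38 coordinates were not mixed. The alternatives tried were another pseudocount (0.1), no filter, no trend, 3 scalings, all transcripts summed, a replicate block and each library left out. Robust moderation and a crossed block were added after seeing the data.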

Additional observations from a re-analysis of the deposited data

How the results depend on the processing

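Each result was recomputed under 14 alternatives. With 2 libraries a group and no read counts, depth limits the low genes most, Fxyd2 and Fxyd3 among them. Where 1 library was left out, the lone library of its group was assumed to vary like the other group. Fxyd2, Fxyd6, Fxyd7 and Atp1b1 stayed above 0 under every alternative, and Fxyd2 ran from 0.96 to 1.45 on the log2 scale. The members' differences could not move with no filter, no trend, either block or robust moderation, and were unchanged with all transcripts summed. Where groups do not overlap, leaving out 1 library cannot change the sign, so for Fxyd2, Fxyd6 and Fxyd7 that sign is no test. With no filter (18398 genes tested) or with all transcripts summed, no list gene was called in either direction by limma, against 1 pump family gene lower and 4 higher and 2 lower partners. At an unadjusted p of 0.05, 3 and 2 pump family genes were lower and none higher, 6 and 6 partners were higher, and 4 and 3 were lower, under these 2 settings. None of the members was called there either, in fits that called 55 and 53 genes in all, against 1378. Partners called lower numbered 1 under median-of-ratios scaling, TPM scaling and the replicate block. Partners called higher numbered 2 under TPM and quantile scaling. Leaving out 1 library at a time gave 1 to 2 pump family genes lower, 1 to 2 partners lower and 1 to 8 partners higher. Slc12a2 and Slc1a4 lost their calls only with no filter and with all transcripts summed, as did Fxyd3. The cause was not tested.

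The deviations of same-numbered libraries from their group means correlated at -0.24 across genes, and the labels do not say that a number marks a pair. With the replicate block, 996 genes were called in all, against 1378 without it, and Kcnj10 and Scn3b lost their calls (limma adjusted p = 0.139 and 0.0953). With the crossed numbers as a block, 2178 of 12913 genes were called, 943 higher (7.3%) and 1235 lower, against 533 and 845 in the main fit. Among them were 2 pump family genes lower and 3 members higher, from which nothing is read.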
